A study of Mus musculus with 30 samples.

Results

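The presynaptic vesicle release machinery was followed here as 45 genes, taken by name as the synaptotagmins, SNARE proteins, active zone proteins and synaptic vesicle proteins of a list. The rule of the list used no measured value, but the list was chosen with earlier results of these data known. All 45 were present among the 19737 genes listed for whole mouse brain, and all 45 passed the filter on low values in every comparison. By role they were 7 calcium sensors (Syt1, Syt2, Syt3, Syt5, Syt7, Doc2a and Doc2b), 4 other synaptotagmins (Syt4, Syt11, Syt12 and Syt17), 4 SNARE proteins (Snap25, Stx1a, Vamp1 and Vamp2), 6 SNARE regulators (Cplx1, Cplx2, Cplx3, Stxbp5, Nsf and Napb), 11 active zone genes (Unc13a, Unc13b, Unc13c, Rims1, Rims2, Rims3, Bsn, Pclo, Erc1, Erc2 and Ppfia3), 4 genes for Rab3 proteins and an effector (Rab3a, Rab3b, Rab3c and Rph3a), 8 vesicle proteins (Syn1, Syn2, Syn3, Syp, Synpr, Sv2a, Sv2b and Sv2c) and 1 endocytic adaptor (Snap91).

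Whole-brain RNA was measured in male C57BL/6N mice that were either wild type (WT) or heterozygous for a CRISPR/Cas9 mutation of exon 5 of Arid1b, a subunit of the BAF chromatin remodelling complex (Arid1b+/-, or HT). There were 30 libraries, 1 per mouse, in 6 groups of 5. At postnatal day 10 (P10) the groups were untreated WT and HT pups. At P120 they were adult mice of both genotypes whose dams had received either 0.2% saccharin water (WT-Veh and HT-Veh) or 0.1 mg/ml fluoxetine hydrochloride, a serotonin reuptake inhibitor, in 0.2% saccharin water (WT-Flx and HT-Flx) from P3 to P21. The drug was delivered to the pups through milk, the water was normal after weaning at P21, and the mutation was carried in all cells from conception. Age went together with vehicle water and with the prefix of the library names in the sample labels, so these cannot be told apart from age in any difference between P10 and P120. The labels do not say which mice were littermates, and p-values measure the spread between these mice.

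Transmitter release depends on vesicles that are tethered and primed at the active zone by Rab3, RIM, Munc13 (Unc13) and ELKS (Erc) proteins and by the large scaffolds Bassoon (Bsn) and Piccolo (Pclo). Calcium then binds synaptotagmin, and the vesicle SNARE synaptobrevin (Vamp) zips with syntaxin (Stx1a) and SNAP-25 on the plasma membrane to fuse the vesicle, with complexins as clamps and activators and NSF with its SNAP adaptors as the machine that pulls the complex apart afterwards. Many of these proteins exist as families whose members serve different brain regions or ages, and the fast calcium sensor Syt2 and the vesicle SNARE Vamp1 are known as the hindbrain counterparts of Syt1 and Vamp2.

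Values are normalized read counts, scaled by the submitters before deposit, and the read depth is unknown. In units of 1000000, the values of a library summed to 31.6 to 32.4 at P10, 32.5 to 35.5 in WT mice at P120 and 33.2 to 41.8 in HT mice at P120. Arid1b read 3164 to 3309 in WT and 2162 to 2334 in HT mice at P10, and 2961 to 3392 in WT-Flx and 2164 to 2616 in HT-Flx mice. Among vehicle mice the library labelled WT-Veh replicate 2 read 2320 and the library labelled HT-Veh replicate 2 read 3361, against their labels, while the other 4 libraries read 3036 to 3229 in WT-Veh and 1973 to 2480 in HT-Veh. Both were kept under their labels, except between the vehicle genotypes, where replicate 2 of each was left out, and values without them are given where they matter. All 10 neuron markers were detected in each group, the sum of these markers lay between 182414 and 197428 in WT pups and between 137616 and 157400 in WT-Veh adults, and the 8 immature neuron markers summed to 55508 to 89541 and 22831 to 26806 in the same groups.

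Per kilobase of transcript, which allows genes to be compared with each other, the most abundant members in WT-Veh adults were Snap25 with a mean normalized value of 23982 per kilobase, Syp (synaptophysin, an abundant vesicle membrane protein) with 16121, Vamp2 with 12652, Rab3a with 12596 and Cplx1 with 11854. In WT pups the first place was held by Vamp2 with 14103 per kilobase, followed by Snap25 with 13609 and Syp with 12647. The least abundant members in adults were Syn3 with 86.2, Unc13b with 115 and Cplx3 with 146 per kilobase. Variation among mice was smallest at P10. The coefficient of variation of a member among the 5 mice had a median of 4.94% in WT and 5.26% in HT pups, against 13.3% in WT-Veh, 21.9% in HT-Veh, 7.26% in WT-Flx and 15.9% in HT-Flx adults. Syt2 was the most variable member in WT pups, HT pups, WT-Veh and WT-Flx adults, at 17.9%, 22.7%, 35.2% and 46.3%.

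The first comparison asked how the release genes differed between the P10 and the adult brain of WT mice. Of the 45 members, 18 rose and 10 fell from WT at P10 to WT-Veh at P120 at an adjusted p under 0.05 in limma, with Benjamini-Hochberg adjustment over 17927 genes. Among all tested genes 28.9% rose and 29.4% fell, so the members rose more often and fell less often than the table as a whole, 40.0% and 22.2%, a difference that was not tested. The groups did not overlap in 23 members, against 45.6% of all genes. The median log2 fold change was 0.05 over the members and -0.01 over all genes. In tissue made of many cell types, a change in the number of cells that express a gene and a change in RNA per cell cannot be told apart.

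**Figure D1:**
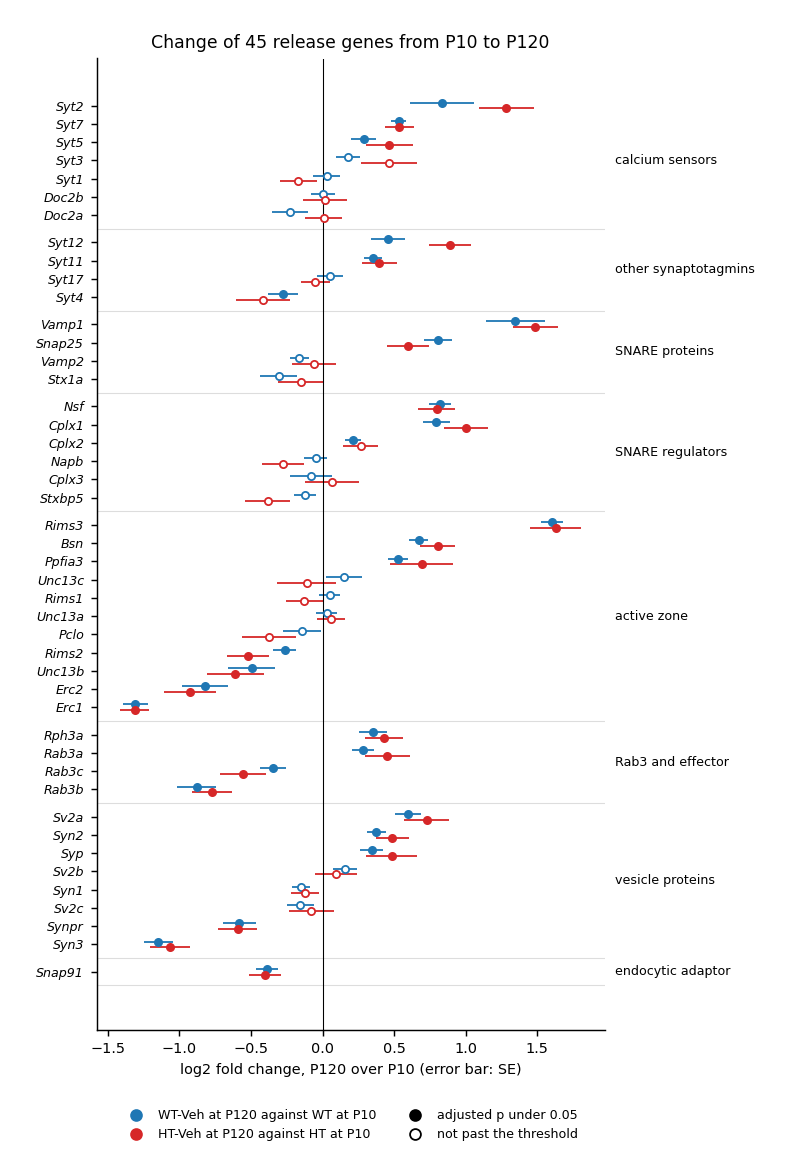
Log2 fold change from P10 to P120 (x axis) of the 45 release genes, grouped by role, in WT (blue) and HT mice (red), with SE as error bars and filled points for an adjusted p under 0.05. Rims3, Vamp1, Syt2, Nsf, Cplx1, Bsn and Sv2a lie on the right and Erc1, Syn3, Rab3b, Erc2, Synpr, Unc13b and Snap91 on the left in both genotypes.

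Among the calcium sensors, 3 of 7 rose, none fell and 4 did not pass the test. Differences with age are given as log2 fold changes, with the SE where it follows a ± sign. Syt2 read 3101, 4294, 4173, 3408 and 4871 in the 5 WT pups and 3847, 6023, 9025, 10555 and 7532 in the 5 WT-Veh adults. The adult values spanned a wide range and the lowest of them lay inside the range of the pups, but the mean difference was 0.83 ± 0.23 on the log2 scale (SE, adjusted p = 0.00639). Syt7, a sensor for slow and asynchronous release, rose by 0.53 (adjusted p = 3.42e-06) and Syt5 by 0.29 (adjusted p = 0.0114). Syt1, the sensor for fast synchronous release in the forebrain, read 32071, 33052, 31892, 32116 and 33651 in WT pups and 39729, 37335, 27608, 29520 and 33384 in WT-Veh adults. In HT mice it read 37061, 33653, 32402, 32507 and 34276 in pups and 25477, 28642, 25709, 38355 and 34917 in HT-Veh adults. Its mean level was about the same at both ages in WT mice (32556 ± 761 and 33515 ± 5101, SD, n = 5) and the difference of 0.03 did not pass the test (adjusted p = 0.809). Syt3, Doc2a and Doc2b, the latter pair being high-affinity calcium-binding proteins linked to spontaneous release, differed by 0.18, -0.23 and 0.00, none past the threshold. Of the synaptotagmins without a sensor role in fast release, Syt12 (0.46) and Syt11 (0.35) rose and Syt4 fell (-0.27, adjusted p = 0.0382). The fall of Syt4 was lost when any of 7 of the 10 libraries was left out, and its direction turned to 0.02 after correction for GC content. Syt17 differed by 0.05 (adjusted p = 0.644).

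Among the SNARE proteins, Vamp1 and Snap25 rose, and Vamp2 and Stx1a did not pass the test. Vamp1 read 3783, 4768, 4568, 3613 and 5549 in WT pups and 6693, 9290, 15389, 14910 and 12338 in WT-Veh adults. All adults lay above all pups, and the rise was 2.54-fold (1.35 ± 0.20 on the log2 scale, adjusted p = 9.45e-05). Snap25 read 28199, 29942, 28381, 26030 and 31425 in WT pups and 51318, 48866, 39790, 56471 and 57283 in WT-Veh adults, without overlap (0.81 ± 0.10, adjusted p = 1.22e-05). In HT mice it read 30068, 29850, 29036, 27804 and 30117 in pups and 35778, 40030, 37018, 59472 and 54595 in HT-Veh adults. Vamp2 read 31546, 31659, 30558, 30333 and 31391 in WT pups and 26110, 30587, 29748, 28145 and 24894 in WT-Veh adults. In HT mice it read 30374, 31272, 30644, 31760 and 30195 in pups and 36980, 29811, 38662, 22820 and 23330 in HT-Veh adults. The WT groups overlapped and the difference of -0.16 missed the threshold (adjusted p = 0.0521). Stx1a read 6967, 7085, 6708, 7188 and 6453 in WT pups and 6616, 7491, 5451, 4354 and 4529 in WT-Veh adults. In HT mice it read 6057, 7007, 7013, 6876 and 6539 in pups and 7738, 5224, 8050, 4603 and 5245 in HT-Veh adults. Its adults spread to both sides of the pups (-0.31, adjusted p = 0.059).

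Of the SNARE regulators, 3 of 6 rose and none fell. Nsf, the ATPase that takes spent SNARE complexes apart, read 18754, 19746, 18766, 18240 and 20417 in WT pups and 28379, 35431, 37578, 34550 and 33807 in WT-Veh adults (0.82 ± 0.08, adjusted p = 1.27e-06). Cplx1 read 14228, 15798, 14510, 13431 and 16373 in pups and 21514, 26642, 30747, 27726 and 23115 in adults (0.80 ± 0.10, adjusted p = 1.32e-05). Neither gene overlapped between the ages, nor did Cplx2, the other main complexin of the brain, which rose by 0.21 (adjusted p = 0.00428). Cplx3, Napb (a SNAP adaptor of NSF) and Stxbp5 (tomosyn, an inhibitor of SNARE assembly) differed by -0.08, -0.05 and -0.12, none past the threshold.

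The active zone genes were split, with 3 that rose, 4 that fell and 4 that did not pass the test. Rims3 encodes a short RIM protein without the N-terminal domains of Rims1. It read 3836, 4012, 3971, 3882 and 4053 in WT pups and 10283, 12997, 13659, 12350 and 11107 in WT-Veh adults. Its 5 pups lay within a narrow range far below the adults, and the 3.04-fold rise was the largest of all members (1.60 ± 0.08, adjusted p = 4.96e-09). Bsn read 13970, 13992, 13537, 12925 and 15454 in pups and 20834, 24731, 21545, 22981 and 21296 in adults (0.67 ± 0.07, adjusted p = 2.74e-06), again without overlap, and Ppfia3 (liprin-alpha3, a scaffold) rose by 0.53. Erc1 encodes an ELKS scaffold. It read 6540, 6759, 6588, 7367 and 6301 in pups and 2188, 2616, 3028, 2813 and 2974 in adults. Every adult lay below every pup, and at 0.40 of the P10 level this was the largest fall among the members (-1.31 ± 0.09, adjusted p = 6.99e-08). Its relative Erc2 read 5641, 5711, 6024, 6293 and 5314 in pups and 4568, 4293, 2283, 2799 and 2993 in adults (-0.82 ± 0.16, adjusted p = 6.82e-04). Unc13b (Munc13-2, a priming factor) read 2342, 2275, 2357, 2440 and 2112 in pups and 2450, 1990, 1262, 1215 and 1560 in adults. Adult 1 lay just above all pups and the other 4 below them (-0.49 ± 0.16, adjusted p = 0.019). Rims2 also fell (-0.26), without overlap. The calls of Unc13b and Rims2 were lost after correction for GC content, at -0.21 and -0.12 on the log2 scale. Unc13a (Munc13-1, the main priming factor of the forebrain) read 13978, 15346, 14537, 15448 and 14910 in WT pups and 15569, 17563, 15145, 13088 and 14709 in WT-Veh adults. In HT mice it read 13884, 14073, 15009, 14746 and 15675 in pups and 16238, 15333, 16961, 14009 and 14100 in HT-Veh adults. These ranges overlapped at both ages (0.03, adjusted p = 0.747), and Rims1, Pclo and Unc13c differed by 0.05, -0.14 and 0.15, none past the threshold.

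The Rab3 genes, small GTPases that guide vesicles to the active zone, moved in different directions. Rab3a rose by 0.28 (adjusted p = 0.00634) and the effector Rph3a (rabphilin) by 0.35 (adjusted p = 0.00894). Rab3b read 2485, 2359, 2198, 2584 and 2057 in WT pups and 1458, 1646, 1352, 960 and 1041 in WT-Veh adults, a fall without overlap to 0.54 of the P10 level (-0.88 ± 0.13, adjusted p = 1.00e-04). Rab3c read 12726, 13624, 13225, 12884 and 14230 in pups and 11736, 10930, 8069, 10577 and 11597 in adults (-0.35 ± 0.09, adjusted p = 0.00635), but its direction turned after correction for GC content, to 0.09 (adjusted p = 0.106).

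Among the vesicle proteins, 3 of 8 rose and 2 fell. Sv2a, a vesicle glycoprotein and the binding site of levetiracetam, read 15702, 16774, 15878, 15609 and 16913 in WT pups and 19518, 25358, 28301, 26853 and 23124 in WT-Veh adults (0.60 ± 0.09, adjusted p = 9.16e-05), and all adults lay above all pups. Syn2, which helps to hold the reserve pool of vesicles, rose by 0.38 and Syp by 0.34. Syn3, the synapsin of immature neurons, read 704, 750, 776, 845 and 728 in pups and 359, 384, 321, 274 and 387 in adults (-1.15 ± 0.10, adjusted p = 9.76e-07). Synpr (synaptoporin, a relative of synaptophysin) read 3398, 3351, 3596, 3161 and 3524 in pups and 2894, 2408, 1664, 2277 and 2292 in adults (-0.58 ± 0.11, adjusted p = 7.50e-04). Neither Syn3 nor Synpr overlapped between the ages. Syn1, Sv2b and Sv2c differed by -0.15, 0.16 and -0.15, none past the threshold. Snap91 (AP180, which recruits clathrin to recycle vesicles) read 16732, 17440, 17189, 17522 and 16748 in pups and 11497, 11847, 13145, 15395 and 13967 in adults, a fall without overlap (-0.39 ± 0.08, adjusted p = 8.41e-04).

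**Figure D2:**
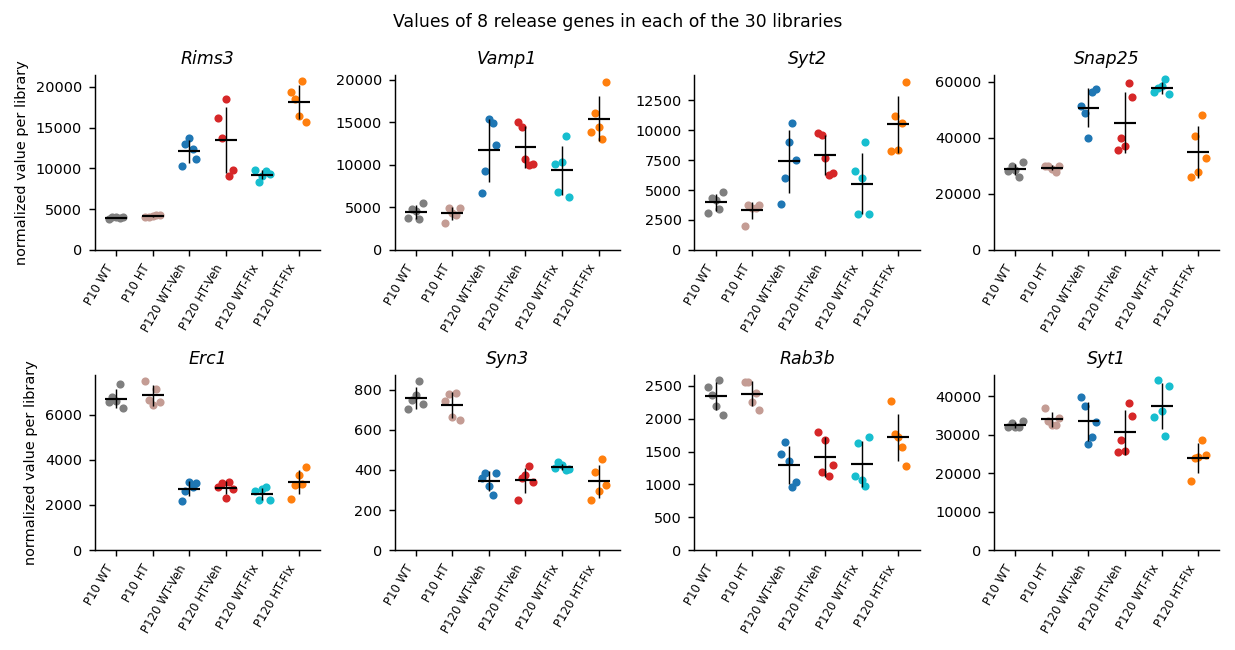
Normalized value (y axis, from 0) of 8 release genes in each of the 30 libraries, by group on the x axis, with points for single mice, a horizontal line for the mean and a vertical line for 1 SD. Rims3, Vamp1 and Snap25 separate P10 from P120 upwards and Erc1, Syn3 and Rab3b downwards in the WT and WT-Veh mice, while Syt1 has similar means at both ages in WT mice and a wider spread in adults.

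Both genotypes changed with age in nearly the same members. From HT at P10 to HT-Veh at P120, 17 members rose and 9 fell, with 25.8% and 25.3% of all 17989 tested genes doing so. All 17 had also risen and all 9 had also fallen in WT mice, which is 94.4% of the 18 and 90.0% of the 10 called there, and the remaining calls in WT mice were Cplx2 and Syt4. Over all genes tested in both genotypes, 88.3% of the rises and 87.1% of the falls called in HT mice were also called in WT mice. Rims3 rose by 1.63 ± 0.18 (adjusted p = 1.07e-05), Vamp1 by 1.49 ± 0.16 (adjusted p = 9.39e-06) and Syt2 by 1.28 ± 0.19 (adjusted p = 1.32e-04). Erc1 changed by -1.31 ± 0.10 (adjusted p = 6.82e-07) and Syn3 by -1.07 ± 0.14 (adjusted p = 4.35e-05), and Rab3c by -0.56, which turned to 0.14 after correction for GC content. The 2 age comparisons share no library. Whether the change with age differed between genotypes was not tested. Without the libraries labelled WT-Veh replicate 2 and HT-Veh replicate 2, the counts were 18 that rose and 13 that fell in WT mice and 16 and 9 in HT mice. The share over all genes is not given for this setting. All counts in this paragraph are from values not corrected for GC content.

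Upstream sequence is shown for the 2 risers and 2 fallers Rims3, Vamp1, Erc1 and Erc2, which are active zone or SNARE genes near the ends of the range of change and for which the RefSeq table of mouse promoters (GRCm38.p6) lists 1 start each. The genes lie on chromosome 4 from 120854816 to 120896579 (Rims3, plus strand), chromosome 6 from 125215551 to 125245964 (Vamp1, plus strand), chromosome 6 from 119570796 to 119848167 (Erc1, minus strand) and chromosome 14 from 27622428 to 28478537 (Erc2, plus strand) in the GENCODE annotation of GRCm38. Each line gives the 250 bases before the RefSeq start, 5′ to 3′ on the strand of the gene, in lower case, with matches to 4 motifs in capitals. The motifs were searched on both strands: the cyclic AMP response element TGACGTCA, the GC box GGGCGG, the E-box CAGATG and the estrogen-related receptor site TCAAGGTCA. In Rims3 a GC box and an E-box lie directly side by side and form 1 run of capitals.
Rims3, chr4:120854549-120854798, plus strand: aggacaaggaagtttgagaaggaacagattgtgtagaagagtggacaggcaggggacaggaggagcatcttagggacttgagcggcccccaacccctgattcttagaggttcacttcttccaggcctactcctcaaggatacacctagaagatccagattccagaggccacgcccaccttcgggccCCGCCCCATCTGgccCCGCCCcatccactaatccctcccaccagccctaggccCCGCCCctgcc
Vamp1, chr6:125215331-125215580, plus strand: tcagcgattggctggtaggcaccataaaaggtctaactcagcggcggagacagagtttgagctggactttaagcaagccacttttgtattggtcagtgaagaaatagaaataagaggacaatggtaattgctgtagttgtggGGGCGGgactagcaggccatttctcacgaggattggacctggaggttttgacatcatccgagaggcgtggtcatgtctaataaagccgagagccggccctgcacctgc
Erc1, chr6:119848151-119848400, minus strand: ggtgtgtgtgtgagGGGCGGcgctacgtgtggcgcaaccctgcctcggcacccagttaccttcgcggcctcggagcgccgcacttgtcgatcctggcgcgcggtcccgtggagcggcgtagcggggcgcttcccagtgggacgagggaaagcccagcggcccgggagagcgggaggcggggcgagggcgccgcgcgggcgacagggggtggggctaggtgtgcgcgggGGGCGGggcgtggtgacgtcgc
Erc2, chr14:27622157-27622406, plus strand: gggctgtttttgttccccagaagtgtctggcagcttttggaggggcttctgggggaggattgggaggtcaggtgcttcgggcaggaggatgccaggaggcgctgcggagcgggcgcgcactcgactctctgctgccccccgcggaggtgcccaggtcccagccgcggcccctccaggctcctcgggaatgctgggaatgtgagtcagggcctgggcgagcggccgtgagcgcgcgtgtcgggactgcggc

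Rims3 held 3 GC boxes and 1 E-box in this window, Vamp1 held 1 GC box, Erc1 held 2 GC boxes, and no match was found in Erc2. The stretches had a GC content of 59.6% in Rims3, 50.4% in Vamp1, 76.0% in Erc1 and 69.6% in Erc2. Over the 34 members matched in the promoter table, a GC box was found in 24 (70.6%), against 32.9% of 27025 promoters of the same length. It was found in 10 of the 14 matched members that rose with age and in 6 of the 7 that fell, so that it was present in most members of either direction. The median GC content of the window was 61.6% in the members and 52.0% over all promoters. The E-box was found in 3 members (8.8%, against 14.5% of all promoters), the cyclic AMP response element in 1, Syn1 (2.9% against 1.6%), and the estrogen-related receptor site in 1, Syt2 (2.9% against 0.4%). These are matches of letters in a window, and binding was not measured.

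The balance within families shifted with age. The log2 ratio of 1 family member to another was compared between the 5 WT pups and the 5 WT-Veh adults in 18 pairs by a two-sided exact permutation test over mice, with adjustment over the 18 pairs, and 11 pairs passed, 4 with a higher and 7 with a lower ratio in adults. The smallest p that 5 against 5 mice allow is 0.00794 (0.0143 after adjustment), which was reached by 10 of the 11. Vamp1 relative to Vamp2 rose by 1.51 on the log2 scale, from -3.07 to -2.50 in pups to -1.96 to -0.92 in adults. Per length, Vamp1 made up 9.47% ± 1.45 (SD, n = 5) of the sum of both genes in WT pups and 23.2% ± 5.75 in WT-Veh adults. Rims3 relative to Rims1 rose by 1.55. The share of Rims3 in the sum of Rims1, Rims2 and Rims3 was 27.2% ± 0.777 in pups and 54.5% ± 5.23 in adults, and the shares of the longer RIM genes were correspondingly lower, 40.2% and 27.6% for Rims1, while Rims2 went from 31.4% to 33.6% in pups to 14.7% to 20.2% in adults. Cplx1 rose relative to Cplx2 by 0.58 and Syn2 relative to Syn1 by 0.53. The share of Cplx1 went from 53.4% ± 2.25 to 63.3% ± 3.33 and that of Syn2 from 40.6% ± 0.757 to 50.0% ± 1.60, so that Syn2 and Syn1 (49.1% ± 1.53) had similar shares in adults. Syn3 fell relative to Syn1, from a mean log2 ratio of -4.50 to -5.50 and from 2.07% ± 0.214 to 0.89% ± 0.142 of the synapsins. The other falls in ratio were -1.16 for Rab3b and -0.63 for Rab3c relative to Rab3a, -0.75 for Sv2c relative to Sv2a, -0.92 for Synpr relative to Syp, -0.32 for Rims2 relative to Rims1 and -0.52 for Unc13b relative to Unc13a. The 7 pairs that did not pass included Syt2 to Syt1 (0.81, adjusted p = 0.0879) and Erc1 to Erc2 (-0.49, adjusted p = 0.125). The ratios were taken from the deposited values, without correction for GC content. In HT mice, 11 of the 18 pairs also passed the same test, 5 with a higher and 6 with a lower ratio in adults, but the set was not identical. Syt2 to Syt1 passed there (1.45, adjusted p = 0.0143) and Unc13b to Unc13a did not (-0.67, adjusted p = 0.0833).

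**Figure D3:**
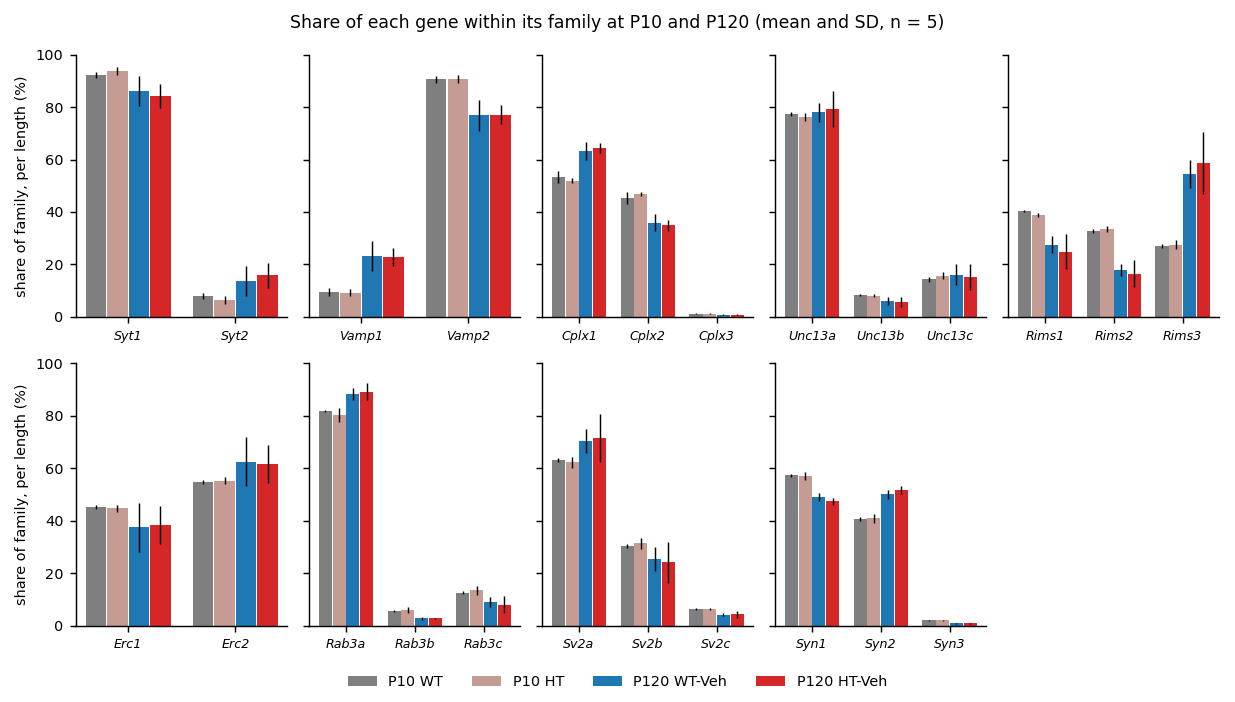
Share (y axis, in percent, per transcript length) of each gene in the sum of its family in WT and HT pups (grey and brown) and in WT-Veh and HT-Veh adults (blue and red), as mean bars with SD over 5 mice. Rims3, Vamp1, Cplx1 and Syn2 take a larger share of their family in adults, and Syn3, Rab3b and Rab3c a smaller one, in both genotypes. The shares are from values not corrected for GC content.

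In WT adults the spread of Vamp1 and Syt2 moved with markers of the hindbrain. In WT-Veh adults 1 to 5, the 7 cerebellar markers summed to 12065, 15792, 43285, 48052 and 39865, and the 5 brainstem and spinal cord markers to 482, 1419, 2824, 3117 and 2714. The adults with the low sums, 1 and 2, were those with the lowest Vamp1 and Syt2 and the highest Erc2, Unc13b and Synpr values given above. Adult 2 is the library labelled WT-Veh whose Arid1b value went against its label. In WT-Flx adults 1 to 5 the cerebellar sums were 30713, 6051, 31714, 49776 and 9331, and the brainstem sums 2020, 246, 1863, 3295 and 408. Adults 2 and 5, with the low sums, again had the lowest Vamp1 (6793 and 6261, against 10061 to 13393 in the other 3) and Syt2 (2975 and 3020, against 6010 to 8986). In HT-Veh adults 1 to 5 the cerebellar sums were 30540, 42300, 37970, 30738 and 31589 and the brainstem sums 2348, 3259, 1354, 2538 and 2146, and the order was another one. Replicate 1 had the lowest cerebellar sum, close to those of 4 and 5, and the highest Vamp1 (15044, against 9998 to 14509 in the other 4) and Syt2 (9724, against 6292 to 9575). Replicate 2, whose Arid1b value went against its label, had the highest sums and the next highest Vamp1 (14509) and Syt2 (9575). Replicate 3, with the lowest brainstem sum, had neither the lowest Vamp1 nor the lowest Syt2. Low Syt2 and a low brainstem sum did go together in the HT pup with the lowest brainstem sum, replicate 1 (286, against 947 to 1474 in the other 4), which had the lowest Syt2 (1973, against 3481 to 3761). HT-Flx adult 5 had the highest cerebellar and brainstem sums of all 30 libraries (62543 and 3695) and the highest Vamp1 and Syt2 values (19801 and 14039). Without WT-Veh adults 1 and 2 the rise with age was larger, 1.68 for Vamp1 (adjusted p = 1.36e-06) and 1.19 for Syt2 (adjusted p = 3.86e-05), and 19 members rose and 14 fell. The share over all genes is not given for this setting. The part of the hindbrain content of a sample in these values was not tested.

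A list of 50 other presynaptic genes, of which 49 were tested, gave a similar picture. From WT at P10 to WT-Veh at P120, 21 rose and 14 fell, with a median of 0.05, and from HT at P10 to HT-Veh at P120, 17 rose and 13 fell. Among the cell type markers in WT mice, all 8 immature neuron markers fell with age (median -2.18), 3 of 10 neuron markers rose and 4 fell, 4 of 8 oligodendrocyte markers rose and none fell, and 3 of 7 astrocyte markers rose and 1 fell. Of the markers of other cells and regions, 4 of 6 for microglia rose and 1 fell, 3 of 5 for endothelium rose and 2 fell, and 2 of 5 for blood fell. Those of striatum rose in 4 of 6, of hypothalamus in 5 of 5 tested, of choroid plexus in 4 of 4, of pituitary in 1 of 2 tested and of cerebellum in 1 of 7, none of 5 brainstem and spinal cord markers passed, and 3 of 4 olfactory bulb markers fell. In HT mice all 8 immature neuron markers fell as well, 4 of 10 neuron markers rose and 4 fell, 6 of 8 oligodendrocyte markers rose and none fell, and 3 of 7 astrocyte markers rose and 1 fell. There 4 of 6 microglial, 3 of 5 endothelial, 6 of 7 cerebellar, 2 of 5 brainstem and spinal cord, 4 of 6 striatal, 5 of 5 tested hypothalamic, 1 of 2 tested pituitary and 4 of 4 choroid plexus markers rose and none of these fell, none of 5 blood markers passed, and 3 of 4 olfactory bulb markers fell. The part of all these markers in the change of the release genes was not tested.

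Transcript GC content was also related to the change with age. Over the 45 members, which share the same libraries, the log2 fold change in WT mice had a Pearson correlation of 0.37 with the GC content of the transcript, against 0.24 over all genes. For a correction, genes were binned by GC content and length, and the average deviation of a library in a bin was taken away. After it 19 members rose and 11 fell in WT mice, against 5693 and 5000 of all 17927 genes. The calls shared before and after were 20, among them Rims3, Vamp1, Syt2, Nsf, Snap25, Cplx1, Bsn, Sv2a, Erc1, Syn3, Rab3b, Erc2, Synpr and Snap91. The 8 calls lost were Rab3c, Rims2, Rph3a, Syp, Syt12, Syt4, Syt5 and Unc13b. Under the correction Stx1a (-0.62, adjusted p = 9.74e-04), Syn1 (-0.42, adjusted p = 2.43e-05), Vamp2, Doc2a and Doc2b fell past the threshold, and Rims1, Stxbp5, Sv2b, Syt1 and Unc13c rose. In HT mice the correlation was 0.52 over the members and 0.35 over all genes. After the correction 16 members rose and 11 fell there, against 5311 and 4818 of all 17989 genes. The HT calls of Synpr (-0.59 before and -0.06 after), Unc13b, Rph3a, Syp, Syt5, Rab3a and Rab3c were lost, while other members newly passed.

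The second comparison asked whether the release genes differed between Arid1b+/- and WT mice without drug. At P10 no member passed the adjusted threshold in limma, where 4 of 17896 genes did (0.0224%). At an unadjusted p under 0.05 there were 5 members (Stxbp5, Syt4, Rims3, Syt12 and Unc13c), or 11.1%, against 12.6% of all genes. The smallest p belonged to Stxbp5, which read 4055, 3970, 3888, 3926 and 4097 in HT and 3444, 3602, 3699, 3632 and 3773 in WT pups. All HT pups lay above all WT pups, with a difference of 0.14 ± 0.04 and an adjusted p of 0.269. After correction for GC content this difference was 0.06 (adjusted p = 0.524, limma). The Pearson correlation of the P10 difference with GC content was -0.47 over the members and -0.18 over all genes. Over the members the median log2 fold change was -0.002, and the values ran from -0.29 (Syt2) to 0.14 (Syt4). The 5 core genes were close in both genotypes at P10, with means of 29375 ± 980 in HT and 28796 ± 2025 in WT pups for Snap25, 6699 ± 407 and 6880 ± 298 for Stx1a, 30849 ± 653 and 31098 ± 608 for Vamp2, 33980 ± 1894 and 32556 ± 761 for Syt1 and 14677 ± 725 and 14844 ± 605 for Unc13a (SD, n = 5).

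Between HT-Veh and WT-Veh at P120, in replicates 1, 3, 4 and 5 of each, no member and no gene passed the adjusted threshold in limma (0.0% of 17784). At an unadjusted p under 0.05 there was also no member, against 1.29% of all genes. Doc2a had the smallest p. It read 1880, 1821, 1399 and 1316 in HT-Veh against 1028, 1436, 1262 and 1232 in WT-Veh adults, with overlap, and differed by 0.36 ± 0.17 (unadjusted p = 0.058, adjusted p = 1, limma). After correction for GC content Doc2a differed by 0.25. The median over the members was 0.04 before correction. The spread between HT-Veh mice was wide, as the values of Snap25 (35778 to 59472) and Rims3 (9036 to 18511) show. None of the 49 other presynaptic genes tested passed the threshold in either genotype comparison.

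The third comparison asked whether fluoxetine given from P3 to P21 left a difference in adults of the same genotype. In HT mice (HT-Flx against HT-Veh) no member and no gene passed the adjusted threshold in limma (0.0% of 17676), while 17 members, or 37.8%, had an unadjusted p under 0.05, against 23.1% of all genes. With replicate numbers fitted as a block, some members did pass, as given in the last section. Whether these numbers pair the mice is not known. The median over the members was 0.27, and 0.02 over all genes. Synpr had the smallest p. It read 1397, 1597, 1529, 1761 and 1539 in HT-Flx and 1873, 1835, 2533, 2798 and 2815 in HT-Veh adults, without overlap, and differed by -0.58 ± 0.15 (adjusted p = 0.215). After correction for GC content this difference was -0.05 and the median of the members 0.05.

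In WT mice (WT-Flx against WT-Veh) again no member and no gene passed in limma (0.0% of 17865), and 18 members, or 40.0%, had an unadjusted p under 0.05, against 25.2% of all genes. The median was -0.10. Ppfia3 had the smallest p. It read 6912, 6892, 6166, 7135 and 7899 in WT-Flx and 8789, 10540, 9699, 9483 and 8079 in WT-Veh adults, without overlap, and differed by -0.41 ± 0.09 (adjusted p = 0.0849), or by -0.13 after correction for GC content. Without WT-Veh replicate 1, 8 members were lower past the threshold, and without WT-Veh replicate 5, 2 were. Both counts stand without the share over all genes in the same setting. Without the libraries labelled WT-Veh replicate 2 and HT-Veh replicate 2, no member passed in either genotype. The differences in the 2 genotypes, which share no library, had opposite signs in 43 of the 45 members (95.6%), and in 81.9% of all 17445 genes tested in both. These signs are from values not corrected for GC content. Over the members the Pearson correlation of the difference with GC content was 0.88 in HT and -0.82 in WT mice. Over all genes it was 0.68 and -0.58. The cause of these correlations was not tested.

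**Figure D4:**
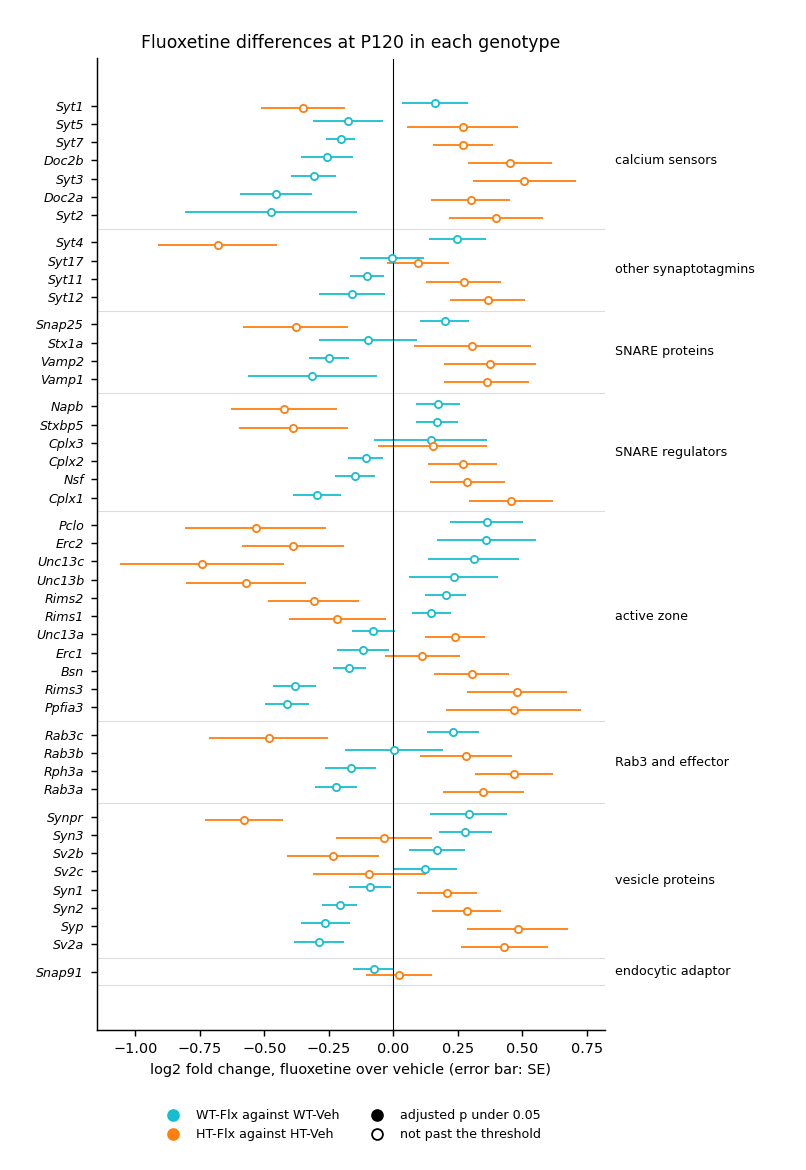
Log2 fold change of fluoxetine over vehicle (x axis) for the 45 release genes by role, in WT (cyan) and HT adults (orange), with SE as error bars and open points for an adjusted p that did not pass 0.05. No member passed in either genotype in the fits shown. The points of the 2 genotypes lie on opposite sides of 0 in 43 of 45 members, from values not corrected for GC content.

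The fourth comparison set HT-Flx against WT-Flx adults, where 23 of the 45 members were higher and 14 lower in HT-Flx at an adjusted p under 0.05 in limma. The libraries are also those of the fluoxetine comparisons, so the values of these comparisons are not independent of each other. In the same comparison 33.1% of all 17799 genes were higher and 30.5% lower, and the groups did not overlap in 32 members, against 48.5% of all genes. The median log2 fold change was 0.38 over the members and 0.02 over all genes. These directions followed the GC content of the transcripts. The 23 higher members had a GC content of 49.4% to 60.5% (median 55.2%), and the 14 lower members one of 40.6% to 48.9% (median 45.1%), so that the ranges did not meet. Over the members, which share all libraries, the Pearson correlation of the difference with GC content was 0.87, and over all 17788 genes with a GC value it was 0.74. The slope of a library's values with GC content, in log2 units for 10 percentage points, was 0.29 to 0.67 in the 5 HT-Flx libraries and -0.40 to -0.31 in the 5 WT-Flx libraries, without overlap, while the vehicle libraries spread from -0.26 to 0.19 (WT-Veh) and from -0.38 to 0.42 (HT-Veh). After correction for GC content and length, 14 members were higher and 6 lower, against 20.4% and 15.6% of all genes, and the median was 0.09. The cause of the slopes was not tested.

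**Figure D5:**
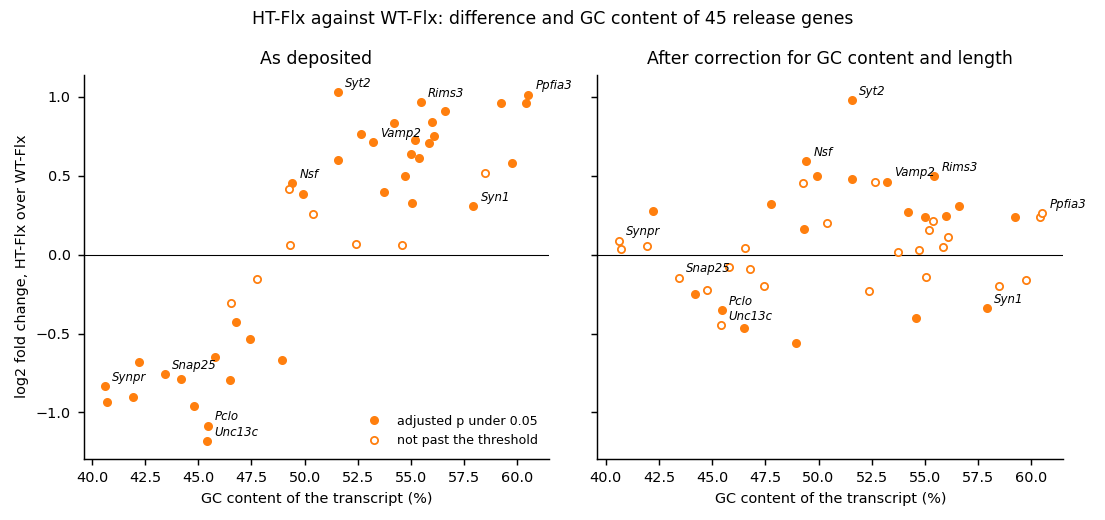
Log2 fold change of HT-Flx over WT-Flx (y axis) against the GC content of the transcript in percent (x axis) for the 45 release genes, from the deposited values (left) and after correction for GC content and length (right), with filled points for an adjusted p under 0.05. On the left the 23 higher members all have a GC content of at least 49.4% and the 14 lower ones at most 48.9%; on the right the points are not split in this way, and 14 members are higher and 6 lower.

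Among the members, 11 were higher both before and after the correction (Cplx1, Nsf, Rab3a, Rims3, Sv2a, Syn2, Syp, Syt11, Syt2, Syt3 and Vamp2) and 4 lower both before and after (Erc2, Napb, Pclo and Rims2). A further 20 calls were lost, Stxbp5 and Syn1 were called in opposite directions, and 3 members passed only after the correction, Snap91 (0.16) and Sv2c (0.32) higher and Syt17 (-0.40) lower. Values in every library follow by role, with the log2 fold change of HT-Flx over WT-Flx in parentheses, before and, where given, after correction for GC content and length.

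Of the calcium sensors, 6 of 7 were higher and Syt1 lower. Syt1 read 18076, 23851, 24312, 28730 and 24804 in HT-Flx against 34714, 44251, 36162, 29623 and 42689 in WT-Flx, without overlap, at -0.65 (adjusted p = 0.00114), and -0.08 after correction. Syt2 read 8297, 11200, 8307, 10589 and 14039 in HT-Flx against 6622, 2975, 6010, 8986 and 3020 in WT-Flx, with overlap, at 1.03 (adjusted p = 0.00703), and 0.98 after correction. Without WT-Flx adults 2 and 5, which had low hindbrain markers, this difference was 0.53 (adjusted p = 0.0314). Syt3 read 4564, 4186, 3731, 4438 and 3350 in HT-Flx against 2054, 1902, 1991, 2233 and 2187 in WT-Flx (0.96, adjusted p = 3.17e-05). Syt5 read 7361, 5403, 5687, 5645 and 3519 in HT-Flx against 3493, 4064, 3198, 2616 and 4522 in WT-Flx (0.61). Syt7 read 16898, 18375, 16883, 17824 and 16368 in HT-Flx against 12492, 12412, 11817, 12121 and 12203 in WT-Flx (0.50). Syt3 and Syt7 did not overlap between the groups and Syt5 did. The Doc2 genes did not overlap either. Doc2a read 2372, 1751, 1880, 1975 and 1547 in HT-Flx against 931, 1047, 959, 802 and 1133 in WT-Flx (0.96). Doc2b read 3452, 3500, 3087, 3535 and 3184 in HT-Flx against 2288, 1823, 1998, 2260 and 1807 in WT-Flx (0.72). After correction the differences were 0.24 for Syt3, 0.03 for Syt7, 0.24 for Doc2a and 0.16 for Doc2b.

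Of the other synaptotagmins, Syt11 and Syt12 were higher and Syt4 lower. Syt11 read 35912, 32242, 33007, 26248 and 30936 in HT-Flx against 23713, 24947, 24344, 22885 and 24935 in WT-Flx (0.38, and 0.50 after correction). Syt12 read 2307, 2066, 2093, 2220 and 2386 in HT-Flx against 1317, 1056, 1369, 1528 and 1349 in WT-Flx (0.75, and 0.11 after correction). Syt4 read 2410, 3204, 2537, 3807 and 4425 in HT-Flx against 5732, 5906, 6394, 6546 and 5971 in WT-Flx (-0.94), and its direction turned to 0.04 after correction. None of the 3 overlapped between the groups, and Syt17 differed by 0.06 (adjusted p = 0.657).

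The SNARE genes were also divided. Snap25 read 25934, 40631, 27801, 48132 and 32923 in HT-Flx against 56404, 57803, 58315, 60835 and 55524 in WT-Flx, lower without overlap (-0.76 ± 0.15, adjusted p = 7.16e-04). Vamp2 read 43625, 39518, 35739, 43720 and 30821 in HT-Flx against 23388, 24775, 21539, 22007 and 25473 in WT-Flx, higher without overlap (0.71 ± 0.10, adjusted p = 1.04e-04). After correction Snap25 differed by -0.15 (adjusted p = 0.332) and Vamp2 by 0.46 (adjusted p = 0.00204). Vamp1 read 13839, 16059, 14417, 13077 and 19801 in HT-Flx against 10061, 6793, 10320, 13393 and 6261 in WT-Flx (0.76, adjusted p = 0.00405), with overlap, and 0.45 (adjusted p = 0.024) without WT-Flx adults 2 and 5. Stx1a read 10909, 7556, 8161, 7603 and 4450 in HT-Flx against 5240, 6555, 4138, 3841 and 6919 in WT-Flx, and did not pass (0.52, adjusted p = 0.0589).

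Of the SNARE regulators, Cplx1, Cplx2 and Nsf were higher and Napb and Stxbp5 lower. Cplx1 read 42440, 40032, 34101, 37593 and 34246 in HT-Flx against 20054, 21107, 20546, 22643 and 20527 in WT-Flx (0.84, adjusted p = 3.06e-05). Cplx2 read 43128, 39523, 39349, 42552 and 36966 in HT-Flx against 31041, 32629, 29389, 27219 and 32514 in WT-Flx (0.40). Nsf read 43787, 43117, 44710, 35928 and 41794 in HT-Flx against 29277, 30120, 30961, 30784 and 31507 in WT-Flx (0.45). All 3 were higher in every HT-Flx than in any WT-Flx adult, and after correction the differences were 0.25, 0.02 and 0.59. Napb read 5774, 9092, 6973, 11392 and 8723 in HT-Flx against 13350, 15101, 14315, 13659 and 14067 in WT-Flx (-0.79, and -0.25 after correction). Stxbp5 read 1624, 2634, 1965, 3078 and 2689 in HT-Flx against 3700, 3989, 3824, 3515 and 3732 in WT-Flx (-0.68), lower in every HT-Flx adult, but its direction turned to 0.27 after correction (adjusted p = 0.00625). Cplx3 differed by 0.07 (adjusted p = 0.802).

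Of the active zone genes, 4 were higher and 6 lower. Rims3 read 19375, 18447, 16405, 20657 and 15705 in HT-Flx against 9741, 8328, 9036, 9688 and 9354 in WT-Flx, 1.96-fold higher without overlap (adjusted p = 3.06e-05), and 0.50 on the log2 scale after correction. Bsn read 27660, 31820, 25891, 35087 and 28198 in HT-Flx against 20473, 20041, 19409, 19457 and 19416 in WT-Flx (0.58). Ppfia3 read 17711, 14277, 11990, 18871 and 9721 in HT-Flx against 6912, 6892, 6166, 7135 and 7899 in WT-Flx (1.01). Unc13a, the core priming factor, was higher too. It read 18195, 18490, 19694, 18330 and 15742 in HT-Flx against 14712, 15412, 13943, 12841 and 15018 in WT-Flx (0.33). Neither Bsn, Ppfia3 nor Unc13a overlapped between the groups, and after correction Ppfia3 differed by 0.26 while Bsn and Unc13a turned to -0.16 and -0.14. Pclo read 3324, 6251, 3497, 8339 and 5264 in HT-Flx against 10672, 11060, 11603, 10347 and 9695 in WT-Flx (-1.09, and -0.35 after correction). Erc2 read 2094, 2382, 2271, 2956 and 2452 in HT-Flx against 3970, 5006, 3957, 3175 and 5222 in WT-Flx (-0.80, and -0.46 after correction). Rims2 read 1643, 2427, 1793, 2571 and 2270 in HT-Flx against 3280, 3462, 3480, 3395 and 3159 in WT-Flx (-0.67, and -0.56 after correction). These 3 were lower in every HT-Flx adult and stayed past the threshold after correction. Rims1 read 3187, 5436, 4108, 6339 and 4577 in HT-Flx against 6696, 7194, 6693, 6482 and 6254 in WT-Flx, with overlap (-0.53). Unc13b read 760, 1078, 926, 1369 and 913 in HT-Flx against 2003, 2158, 1833, 1705 and 1938 in WT-Flx (-0.96). Unc13c read 802, 1914, 918, 2395 and 1766 in HT-Flx against 3527, 2528, 3756, 4247 and 2523 in WT-Flx (-1.18). The last 3 did not pass after correction (-0.20, -0.22 and -0.45), and Erc1 differed by 0.26 before it (adjusted p = 0.094).

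Of the Rab3 genes and their effector, Rab3a and Rph3a were higher and Rab3c lower. Rab3a read 30784, 26113, 26083, 24251 and 23470 in HT-Flx against 16098, 16769, 16306, 16452 and 17996 in WT-Flx (0.64, and 0.24 after correction). Rph3a read 24876, 24065, 21825, 19755 and 21437 in HT-Flx against 14308, 13293, 13359, 14106 and 13265 in WT-Flx (0.71, and 0.05 after correction). Rab3c read 4338, 7434, 5301, 9648 and 7454 in HT-Flx against 11725, 13263, 13296, 11370 and 11998 in WT-Flx (-0.90), and its direction turned to 0.05 after correction. All 3 separated the groups before correction, and Rab3b differed by 0.41 (adjusted p = 0.0663).

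Of the vesicle proteins, 4 were higher and 2 lower. Sv2a read 39975, 36862, 33873, 35871 and 32218 in HT-Flx against 20097, 18475, 19830, 21516 and 20198 in WT-Flx (0.83, adjusted p = 3.06e-05). Syp read 76657, 66571, 60593, 67279 and 55199 in HT-Flx against 32630, 35987, 32202, 32708 and 39875 in WT-Flx (0.91, adjusted p = 3.35e-05). Syn2 read 26562, 25287, 24350, 25792 and 21162 in HT-Flx against 15797, 16816, 15551, 15544 and 17232 in WT-Flx (0.60). None of these overlapped, and all 3 stayed past the threshold after correction, at 0.27, 0.31 and 0.48. Syn1 read 17389, 18620, 17535, 19782 and 17036 in HT-Flx against 14469, 16232, 13659, 13004 and 15843 in WT-Flx (0.31), and turned to -0.34 after correction (adjusted p = 0.00955). Synpr read 1397, 1597, 1529, 1761 and 1539 in HT-Flx against 2764, 3127, 2638, 2132 and 3441 in WT-Flx (-0.84), and turned to 0.09. Sv2b read 7152, 8145, 10916, 10228 and 10779 in HT-Flx against 11491, 14234, 12444, 10335 and 14494 in WT-Flx, with overlap (-0.42, and -0.09 after correction). Syn3, Sv2c and Snap91 differed by -0.31, -0.15 and 0.06, none past the threshold before correction.

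Of the 49 other presynaptic genes tested, 22 were higher and 18 lower in HT-Flx than in WT-Flx. Beside these counts, 4 of 5 brainstem and spinal cord markers were higher in HT-Flx adults, whose sums ran from 1507 to 3695, against 246 to 3295 in WT-Flx, and 5 of 10 neuron markers were higher and 2 lower. Of the glial markers, 4 of 8 for oligodendrocytes were higher and 2 lower, 3 of 7 for astrocytes higher and 3 lower, and 4 of 6 for microglia higher and 1 lower. Of 8 immature neuron markers 3 were higher and 2 lower, of 5 endothelial markers 1 and 1, and of 5 blood markers 3 and 0. The markers of cerebellum were higher in 1 of 7, those of striatum higher in 1 and lower in 1 of 6, those of choroid plexus higher in 1 and lower in 1 of 4, and none of 5 for hypothalamus, 3 tested for pituitary or 4 for olfactory bulb passed. The summed levels of 4 lists did not overlap between the groups. They were 162477 to 174515 in HT-Flx against 143397 to 150502 in WT-Flx for neurons, 257258 to 286498 against 183359 to 243160 for oligodendrocytes, 27322 to 41026 against 20510.5 to 23524 for immature neurons and 7256 to 11799.7 against 5768 to 7125 for microglia. The sums over all genes of a library did not overlap between these groups either. In units of 1000000 they were 37.1 to 41.5 in HT-Flx against 32.5 to 33.6 in WT-Flx. The marker sums were not scaled to these totals. Without WT-Flx adults 2 and 5, 25 members were higher and 13 lower in HT-Flx, and the share over all genes is not given for this setting. The part of these markers in the values of the other members was not tested.

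The last comparison tested whether the fluoxetine difference differed between genotypes, as the interaction of genotype and fluoxetine over the 20 P120 libraries. It passed the adjusted threshold in limma for 17 members with a higher and 3 with a lower value of HT-Flx minus HT-Veh relative to WT-Flx minus WT-Veh, against 15.8% and 11.5% of all 17796 genes. The median was 0.32 over the members and 0.01 over all genes. The smallest p was that of Syt7, which read 16239, 14648, 15322, 12892 and 12757 in HT-Veh against 13697, 14937, 14487, 13841 and 13424 in WT-Veh adults. The mean of the fluoxetine group was higher than that of the vehicle group in HT mice (0.27) and lower in WT mice (-0.20), and the interaction was 0.47 ± 0.11 (adjusted p = 0.0347). The vehicle values of the other called members show the same spread. Rims3 read 16136, 13719, 18511, 9036 and 9776 in HT-Veh. Syt3 read 3517, 3071, 4122, 1937 and 2116 in HT-Veh against 2172, 2733, 2788, 2840 and 2358 in WT-Veh. Ppfia3 read 12085, 11704, 16877, 6459 and 7154 in HT-Veh. In each of these genes HT-Veh replicates 1 and 3 lay high and replicates 4 and 5 low. Cplx1 read 35290, 29145, 32332, 20920 and 22062 in HT-Veh. Syp read 59393, 45000, 66700, 34081 and 35612 in HT-Veh against 36339, 47830, 44832, 43063 and 36779 in WT-Veh. Sv2a read 34328, 25991, 33735, 20110 and 21402 in HT-Veh. The order was the same again, with HT-Veh replicates 1 and 3 above 4 and 5. The 3 members with a lower interaction showed the reverse order. Pclo read 4878, 6411, 6331, 10678 and 9598 in HT-Veh against 9638, 9256, 5452, 8119 and 9935 in WT-Veh. Syt4 read 3164, 4186, 6311, 6467 and 6454 in HT-Veh against 5176, 4744, 3970, 5852 and 6269 in WT-Veh. Synpr, whose values are given above, was likewise lowest in HT-Veh replicates 1 and 2 and highest in 4 and 5. The slopes with GC content of HT-Veh replicates 1 to 5 were 0.42, 0.14, 0.18, -0.38 and -0.32. The part of these slopes in the order of the values was not tested.

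Vehicle values of the remaining called members were as follows. Doc2a read 1880, 1336, 1821, 1399 and 1316 in HT-Veh against 1028, 1797, 1436, 1262 and 1232 in WT-Veh. Doc2b read 3030, 2669, 3051, 1709 and 2085 in HT-Veh against 2038, 2322, 2619, 2848 and 2350 in WT-Veh. Rph3a read 20296, 17633, 18032, 12515 and 13560 in HT-Veh against 12489, 16960, 18922, 14632 and 14336 in WT-Veh. In these 3, HT-Veh replicate 4 or 5 was the lowest of its group. Rab3a read 27206, 19441, 23791, 16629 and 17047 in HT-Veh against 16998, 21388, 21797, 20326 and 17484 in WT-Veh. Syt12 read 2016, 1800, 2124, 1316 and 1467 in HT-Veh against 1127, 1507, 1741, 1679 and 1380 in WT-Veh. Syn2 read 24844, 18707, 21650, 19404 and 17047 in HT-Veh against 17065, 20094, 19604, 19273 and 17567 in WT-Veh. The HT-Veh range was wider than the WT-Veh range in Rab3a and Syn2. Bsn read 27285, 24169, 28958, 20780 and 19779 in HT-Veh. Nsf read 47039, 33744, 29369, 32034 and 31377 in HT-Veh. Cplx2 read 40524, 34843, 35606, 27777 and 29690 in HT-Veh against 33203, 34195, 32353, 33402 and 31116 in WT-Veh. Nsf was far higher in HT-Veh replicate 1 than in the other 4.

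The calls of the interaction depended on single libraries and on GC content. None of the 20, and no gene of 17796, passed after correction for GC content and length. There the median was 0.06 and the interaction of Bsn and Syt12 turned to -0.16 and -0.03. None passed either without the libraries labelled WT-Veh replicate 2 and HT-Veh replicate 2, without the 4 WT libraries with low hindbrain markers, or when 1 of these 8 libraries was left out: HT-Flx replicate 1, WT-Flx replicates 2 and 3, HT-Veh replicates 4 and 5, or WT-Veh replicates 2, 3 and 4. Without HT-Veh replicate 1 there were 20 higher and 12 lower members, without HT-Veh replicate 3 there were 17 and 12, without HT-Flx replicate 4 there were 15 and 12, and without WT-Veh replicate 1 there were 18 and 8. The share over all genes is not given for these settings. Of the 49 other presynaptic genes tested, 17 had a higher and 4 a lower interaction.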

How the data were processed

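Whole-brain RNA-seq libraries of 30 mice were analysed, 5 in each of 6 groups taken from the sample labels. According to the study's methods and the submitters' processing notes, reads were quantified with Salmon 1.1.0 against GRCm38, with its GC bias correction, and normalized with DESeq2 1.30.1. The processing notes list R 4.1.1 and the methods another version of R. The deposited table holds 1 signal value per gene and library, counts divided by the authors' DESeq2 normalization factors, which are not whole numbers. Raw counts were not analysed here, the depth is unknown, and no count test was run. Since the normalization had been made over all 30 libraries, groups were compared within this 1 table. Fold changes are on the scale of log2(value + 1), which understates changes of low genes.

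Each comparison was fitted with limma 3.58.1 (R 4.3.3, with trend) over its own libraries, genes with a mean under 10 were left out, p-values were adjusted by Benjamini-Hochberg over all genes tested, and an adjusted p under 0.05 was the threshold. All tests were two-sided. The 45 members and the lists (50 other presynaptic genes and markers of neurons, immature neurons, glia, vessels, blood and brain regions) were chosen with earlier results of these data known. Values in every library are given for members past the threshold in a genotype, fluoxetine or interaction comparison, or otherwise for the member with the smallest p, for the 8 largest rises and falls with age, and for Syt1, Snap25, Stx1a, Vamp2 and Unc13a. Members named beyond this rule were chosen after their values were seen. Family ratios were compared by exact permutation over mice (scipy 1.17.1, with Python 3.11.15, numpy 2.4.6 and pandas 2.3.3). The correction for GC content and length subtracts from each library its mean log2 deviation within bins of these 2 properties, taken here from GENCODE vM21 transcripts. The limma fits and the correction for GC content and length were tested on simulated data. The alternatives were the pseudocount, the filter, size factors, the trend, the GC correction, a replicate block and leaving out libraries, including 1 choice made after seeing the data, without the 4 WT libraries with low cerebellar markers (WT-Veh replicates 1 and 2 and WT-Flx replicates 2 and 5). Whether replicate numbers pair the mice is not known. Correlations between mice with the same number averaged -0.05 to 0.18 over the comparisons, and such averages cannot exclude a shared litter or handling. The highest average was that of HT-Flx against HT-Veh, at 0.18, against -0.04 for its other pairs. No pairing was used in the main fits. Promoter sequences are those of RefSeq on GRCm38.p6, in which 34 of the 45 members were matched (all but Syt4, Syt5, Syt7, Syt12, Syt17, Snap25, Vamp2, Rims2, Doc2a, Doc2b and Syn3).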

Additional observations from a re-analysis of the deposited data

Results flagged for a closer look

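Among 270 sets of 5 values (45 members in 6 groups), 9 had a mouse far from the other 4 of its group by Dixon's criterion, which chance alone flags in about 1 in 20 sets. HT pup 1 accounted for 4 of the 9. It had the lowest value in its group for Syt2 (1973, nearest other mouse 3481), Rab3a (11525, nearest 15575), Sv2a (14634, nearest 16168) and Cplx2 (25155, nearest 27948). The same pup had the lowest brainstem and spinal cord marker sum at P10 (286). Its values had a slope with GC content of -0.174, in log2 units for 10 percentage points, against -0.038 to 0.045 in the other P10 libraries. The part of the markers and of this slope in its values was not tested. WT pup 2 was highest for Rab3a (16562, nearest 16012) and Ppfia3 (6729, nearest 6409), and WT pup 4 was lowest for Syt12 (867, nearest 1091). Among adults, HT-Veh 1 was highest for Nsf (47039, nearest 33744) and HT-Flx 1 highest for Cplx3 (712, nearest 465).

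For 20 members the fluoxetine difference differed between genotypes by the interaction in limma. The interaction on the log2 scale was 0.88 for Ppfia3, 0.86 for Rims3, 0.82 for Syt3, 0.76 for Doc2a, 0.75 for Cplx1, 0.75 for Syp, 0.72 for Sv2a, 0.71 for Doc2b and 0.63 for Rph3a. It was 0.62 for Vamp2, 0.57 for Rab3a, 0.53 for Syt12, 0.49 for Syn2, 0.47 for Bsn, 0.47 for Syt7, 0.43 for Nsf and 0.38 for Cplx2. It was negative for Synpr (-0.87), Pclo (-0.90) and Syt4 (-0.93). These are the calls that were all lost after correction for GC content and length, where Bsn (-0.16) and Syt12 (-0.03) turned in direction. Over the 45 members the Pearson correlation of the interaction with the GC content of the transcript was 0.87, against 0.72 over all genes. The cause of the GC-linked differences was not tested.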

How the results depend on the processing

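Of 3082 recomputed values of named members, 2646 were counted as the same, 339 fell short of the threshold, 43 newly passed it, 32 without a call moved and 22 with a call turned. Values counted as the same kept their direction and their side of the threshold. They also include values without a call whose sign changed by less than the SE of the main fit. All 22 turned under the GC and length correction, with and without a replicate block: in HT-Flx against WT-Flx Bsn (-0.16), Rab3c (0.0528), Stxbp5 (0.27), Syn1 (-0.34), Synpr (0.0882), Syt4 (0.0372) and Unc13a (-0.14), in the interaction Bsn (-0.16) and Syt12 (-0.0307), and with age Rab3c in WT (0.093) and HT mice (0.14). Beyond these named members, Syt4 with age in WT mice turned to 0.0246 under the same correction. The correction also gave 14 higher and 6 lower members in HT-Flx against WT-Flx (12 and 5 with the replicate block), 0 and 0 in the interaction, and medians of 0.0882 in HT-Flx against WT-Flx, 0.0564 in the interaction, 0.0527 for fluoxetine in HT mice, -0.0175 in WT mice and 0.13 with age in HT mice. Whether the numbers of the mice pair them is not known, and the replicate block alone gave 1 higher and 8 lower members for fluoxetine in HT mice and 15 and 9 in the interaction. A minimum mean of 100 gave 9 lower members in the interaction. Without both vehicle libraries numbered 2, or without the 4 WT libraries low in cerebellar markers, it was 0 and 0. Leaving out 1 library at a time gave 0 to 20 higher and 0 to 12 lower members in the interaction, 0 lower members for fluoxetine in WT mice except 8 without WT-Veh replicate 1 and 2 without WT-Veh replicate 5, a median with age in HT mice of -0.0513 (without HT-Veh replicate 3) to 0.0717, a median of 0.32 (without WT-Flx replicate 4) to 0.40 in HT-Flx against WT-Flx, and 10 to 13 family ratios past the threshold. The counts with age, between genotypes without drug and in HT-Flx against WT-Flx stayed within 1.5 times their value under the other alternatives (pseudocounts of 0.1 and 5, no filter, other size factors, no trend, single libraries left out). Where no value is given, the cause was not tested. Counts of members with libraries left out, with a replicate block or with a minimum mean of 100 stand without the share over all genes in the same setting. The depth behind the values is unknown.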
